A study of Mus musculus with 6 samples.

Results

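The rod phototransduction cascade was described by 9 genes, taken by name from a table of 21995 gene rows: Gnat1, Gnb1, Gngt1, Pde6a, Pde6b, Pde6g, Cnga1, Sag and Grk1. The values were FPKM, fragments of a gene per unit of its length and per unit of mapped fragments. RNA-seq had been run on whole retinas of mice at postnatal day 6 (P6), with 3 libraries labelled Lhx4 null and 3 labelled control, each from the retinas of 1 mouse. All mice were of a mixed C57BL/6J and 129S6 background. Null animals were Lhx4 loxP/tdT with Six3-Cre: 1 allele had a tdTomato knock-in, and Cre, active in retinal progenitors, recombined the other. The RNA-seq controls are labelled as control and no more, so which Lhx4 alleles they carried is not known here. The LIM-homeodomain factor encoded by Lhx4 acts in bipolar cells, and earlier work cited by the study found Lhx4 expressed in cones too. The comparison asks what the retina expresses differently without this factor. All 9 genes passed the filter on low values, which kept the 13175 rows averaging 0.5 FPKM or more.

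In rods, light is turned into an electrical signal by a short chain of proteins. The light-activated visual pigment switches on transducin, a G protein whose alpha subunit (Gnat1) carries GTP and whose beta (Gnb1) and gamma (Gngt1) subunits hold it at the membrane. Transducin releases the brake of the cGMP phosphodiesterase, which is built of the catalytic subunits Pde6a and Pde6b and the inhibitory subunit Pde6g. The fall in cGMP closes the channel of the outer segment, whose alpha subunit is Cnga1, and the response ends when Grk1 phosphorylates the pigment and Sag, the rod arrestin, caps it. Most rods of the mouse are born around birth, and outer segments grow during the second postnatal week, so that at P6 the cascade is still being built. Gnb1 is the one member that is also used widely outside rods.

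Promoters are shown because the 9 genes moved together across the libraries, as described below. RefSeq on GRCm38.p6 gave the 250 bases before the transcript start for 6 of the 9 (Gnb1, Gngt1, Pde6b, Cnga1, Sag and Grk1). These were searched on both strands for TAATCC, the core letters bound by the photoreceptor factor CRX, and TGCTGA, the core of sites bound by the rod factor NRL. Matches are in capitals below, in the 3 windows that hold both motifs, one and none.
Sag, chr1:87803430-87803679, plus strand, GRCm38.p6: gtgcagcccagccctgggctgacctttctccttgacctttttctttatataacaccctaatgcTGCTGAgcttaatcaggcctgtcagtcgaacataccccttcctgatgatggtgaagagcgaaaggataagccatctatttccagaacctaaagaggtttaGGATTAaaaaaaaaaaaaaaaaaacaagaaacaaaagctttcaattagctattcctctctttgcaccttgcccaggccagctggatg
Pde6b, chr5:108388123-108388372, plus strand, GRCm38.p6: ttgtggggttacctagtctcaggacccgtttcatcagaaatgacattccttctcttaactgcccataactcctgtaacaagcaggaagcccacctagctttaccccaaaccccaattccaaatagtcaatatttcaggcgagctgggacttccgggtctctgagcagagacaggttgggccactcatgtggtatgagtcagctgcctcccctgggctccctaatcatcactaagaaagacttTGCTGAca
Gnb1, chr4:155491111-155491360, plus strand, GRCm38.p6: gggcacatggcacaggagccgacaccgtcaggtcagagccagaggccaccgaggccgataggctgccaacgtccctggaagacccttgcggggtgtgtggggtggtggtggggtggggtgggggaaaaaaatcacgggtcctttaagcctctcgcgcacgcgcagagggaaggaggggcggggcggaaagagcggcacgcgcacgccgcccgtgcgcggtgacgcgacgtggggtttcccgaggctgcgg

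The Sag window held TAATCC, read here on the other strand as GGATTA, at position -87, and TGCTGA at position -187, where positions are those of the first base of the match counted back from the start. The Pde6b window held TGCTGA at position -8. No match lay in the Gnb1 window, which was 69.2% G and C, against a median of 52.4% over all promoter windows and 42.8% for Sag. TAATCC was found in 3 of the 6 windows (Gngt1, Cnga1 and Sag) and in 6.25% of 32536 windows of the same length, and TGCTGA was found in 2 of the 6 (Pde6b and Sag) and in 16.1% of all. A match describes letters only, and a window without one says nothing of whether the factor binds.

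The genes lie apart in the genome, with coordinates from GENCODE M21 on GRCm38, and each is protein coding. The transducin genes are at chromosome 9, 107674474 to 107679712, minus strand (Gnat1), at chromosome 4, 155491361 to 155559269, plus strand (Gnb1), and at chromosome 6, 3993792 to 3997436, plus strand (Gngt1). The phosphodiesterase genes are at chromosome 18, 61220315 to 61289924, plus strand (Pde6a), at chromosome 5, 108388391 to 108432397, plus strand (Pde6b), and at chromosome 11, 120447605 to 120453500, minus strand (Pde6g). Cnga1 is at chromosome 5, 72603696 to 72644275, minus strand, Sag at chromosome 1, 87803680 to 87845158, plus strand, and Grk1 at chromosome 8, 13405081 to 13421951, plus strand. By these coordinates the Cnga1 window searched above lies inside the gene, as does most of the Gngt1 window. The RefSeq starts of both lie further in, so their TAATCC matches fall within the annotated genes. A pseudogene lies within Cnga1 on its own strand (Gm5297), and others lie opposite Gnb1 (Gm13171) and Pde6a (Rps2-ps10). How fragments were divided there is not given in the sources used here, so the values of these 3 genes are less certain.

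Before the results, 3 facts of the libraries bear on every value. Lhx4 itself, the targeted gene, went against the label, with 28.2, 28.3 and 25.8 FPKM in the null-labelled libraries numbered 1 to 3 and 18.0, 18.1 and 19.3 FPKM in the controls (log2 difference 0.56, SE 0.0847, limma, adjusted p = 0.336). The row does not show which part of the gene was read, so it does not check the labels, and the term null-labelled is used for these libraries. The glutamate receptor gene Grik1, which the study reported as reduced at P6, did not overlap between groups. It had 5.06, 4.68 and 3.19 FPKM in null-labelled libraries and 19.9, 15.7 and 6.14 FPKM in controls. Grm6 and Scgn, also reported as reduced at P6, overlapped. Both libraries numbered 3 stood apart: the first principal component, with 50.9% of the variance, placed them at 25.5 (null-labelled) and 34.6 (control), and the other 4 between -18.1 and -13.0. Summed FPKM ranged between 386567 and 429668, FPKM does not carry read numbers, and precision therefore rests on the spread between the 3 mice of a group.

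Every gene of the cascade was detected at P6, with levels that differed by over an order of magnitude between members. They held 0.464%, 0.485% and 0.280% of the summed FPKM in null-labelled libraries 1 to 3, and 0.599%, 0.615% and 0.239% in controls 1 to 3. FPKM is a level per length, so genes can be set side by side. Gnb1 and Sag led in each library, with Gnb1 first in the 3 null-labelled libraries and control 3 and Sag first in controls 1 and 2. Pde6g came after them in all 6 libraries. Pde6b and Gngt1 followed and changed places between libraries, with a ratio of Pde6b to Gngt1 of 1.00, 1.03 and 0.892 in null-labelled libraries and 1.03, 0.939 and 1.19 in controls, so their levels did not differ beyond the spread. Cnga1 was sixth and Grk1 seventh throughout. Gnat1 and Pde6a were the lowest and also changed places. Among all rows of a library, the lowest member ranked between 4809 (control 1) and 10248 (null-labelled library 3) by level. Every member's values for the 6 libraries follow, by role.

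**Figure D1:**
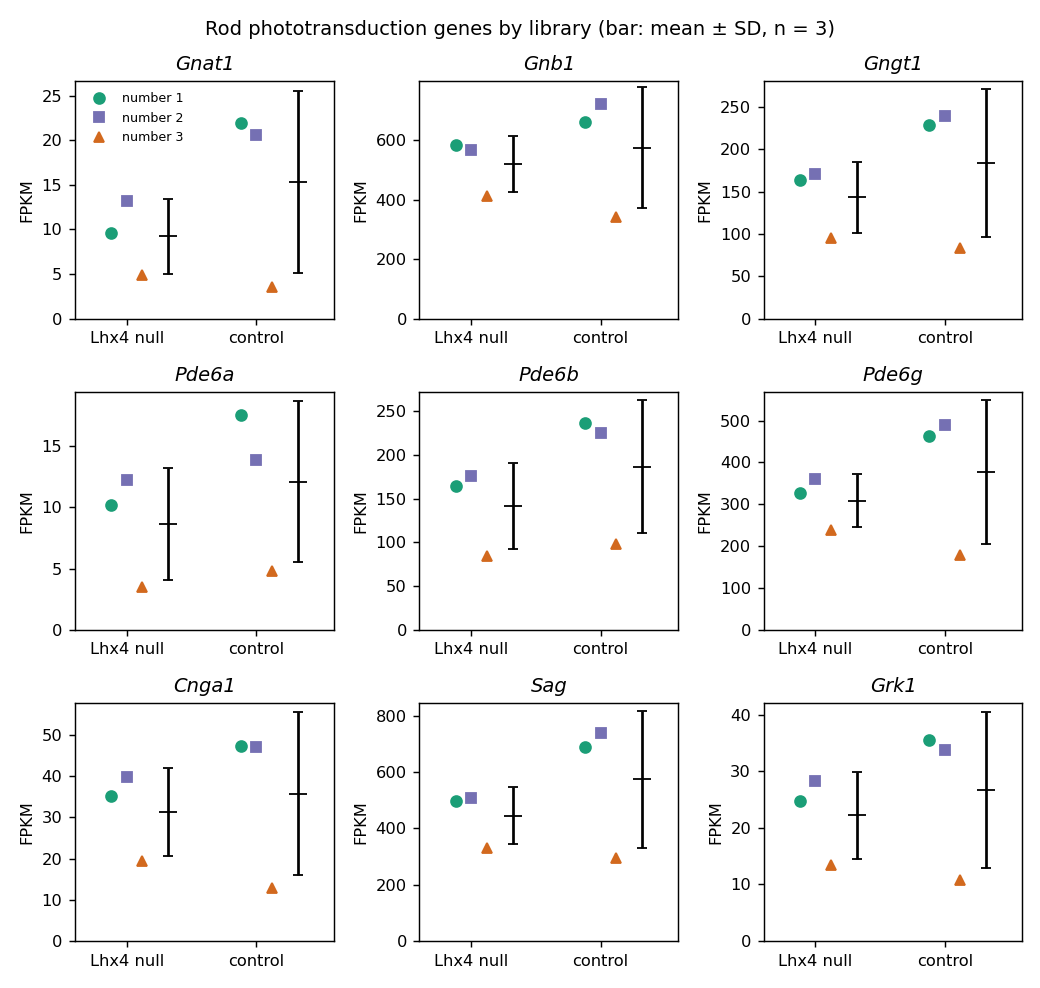
FPKM (vertical axes, each starting at 0) of the 9 cascade genes in the 3 null-labelled libraries and the 3 controls, with the marker giving the replicate number and the bar the mean ± SD (n = 3). In all 9 genes both libraries numbered 3 lie below the 4 others, and the controls spread more widely than the null-labelled libraries.

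Gnat1, the rod transducin alpha subunit, had 9.63, 13.2 and 4.87 FPKM in null-labelled libraries 1 to 3, against 21.9, 20.5 and 3.57 FPKM in controls 1 to 3. The groups overlapped, because control 3 was the lowest library of all. The means were 9.23 ± 4.18 and 15.3 ± 10.2 FPKM (SD, n = 3 each). On the log2(FPKM + 0.5) scale, used for every fitted difference here, the null-labelled libraries minus the controls gave -0.45 (SE 0.663, limma, Benjamini-Hochberg (BH) adjusted p = 0.900).

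Gnb1, the beta subunit, had 585, 566 and 413 FPKM in null-labelled libraries and 660, 721 and 343 FPKM in controls, with means of 521 ± 94.4 and 575 ± 203 FPKM (SD, n = 3 each). Its difference was -0.08 (SE 0.290, limma, adjusted p = 0.971). Gngt1, the rod gamma subunit, had 164, 170 and 95.0 FPKM in null-labelled libraries and 229, 239 and 82.9 FPKM in controls. Controls 1 and 2 were above every null-labelled library and control 3 below all of them, the order also seen in Gnat1 and Gnb1. For Gngt1 the difference was -0.26 (SE 0.422, limma, adjusted p = 0.917). RNA of the transducin subunits was not level in the whole retina: Gnb1 stood at 60.8, 42.9 and 84.8 times Gnat1 in null-labelled libraries and at 30.2, 35.1 and 96.2 times in controls. Since Gnb1 is also used outside rods, this ratio does not give that of the subunits within rods.

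Pde6a, a catalytic subunit of the rod phosphodiesterase, had 10.2, 12.2 and 3.46 FPKM in null-labelled libraries and 17.6, 13.9 and 4.80 FPKM in controls. Pde6b, the other catalytic subunit, had 165, 176 and 84.8 FPKM in null-labelled libraries and 237, 225 and 98.7 FPKM in controls. These are the only members in which null-labelled library 3 was the lowest of the 6. The differences were -0.45 for Pde6a (SE 0.560, limma, adjusted p = 0.882) and -0.36 for Pde6b (SE 0.394, limma, adjusted p = 0.861). Pde6b exceeded Pde6a by 16.1, 14.4 and 24.5 times in null-labelled libraries and by 13.5, 16.2 and 20.6 times in controls, although both subunits enter the enzyme in equal number. Pde6g, the inhibitory subunit, had 326, 360 and 238 FPKM in null-labelled libraries and 463, 489 and 179 FPKM in controls, a difference of -0.18 (SE 0.378, limma, adjusted p = 0.945).

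Cnga1, the alpha subunit of the cGMP-gated channel, had 35.1, 39.8 and 19.4 FPKM in null-labelled libraries and 47.4, 47.1 and 12.9 FPKM in controls, and its difference was the smallest of the 9 at -0.03 (SE 0.507, limma, adjusted p = 0.997). Its partner in the channel, Cngb1, stood at 2.61, 2.73 and 3.64 times Cnga1 in null-labelled libraries and at 3.04, 2.90 and 5.45 times in controls. Both libraries numbered 3 thus had the highest ratio of their group.

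Sag, the arrestin that ends the response, had 497, 508 and 329 FPKM in null-labelled libraries and 689, 738 and 293 FPKM in controls, with means of 445 ± 100.1 and 573 ± 244 FPKM (SD, n = 3 each) and a difference of -0.28 (SE 0.360, limma, adjusted p = 0.884). Grk1, the kinase that prepares the pigment for arrestin, had 24.7, 28.3 and 13.5 FPKM in null-labelled libraries and 35.5, 33.8 and 10.8 FPKM in controls, a difference of -0.16 (SE 0.468, limma, adjusted p = 0.966). Sag again had controls 1 and 2 above and control 3 below every null-labelled library, and so did Grk1.

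By genotype, none of the 9 passed the test. The count was 0 of 9 at a BH-adjusted p under 0.05, where 0.0152% of the tested genes were called, and also 0 of 9 at an unadjusted p under 0.05 (6.81% of tested genes) and 0 of 9 at the study's thresholds, a fold over 2 with an unadjusted p under 0.05 (0.25%). Those thresholds were applied here to the limma fit, whereas the study tested with Cufflinks, so counts of genes passing them are not alike. The count at an unadjusted p alone rested on the libraries numbered 3. Without control 3 it was 7 of 9, all but Pde6a and Cnga1 and each lower in null-labelled libraries. In that fit 8.75% of tested genes passed and 4.68% passed as lower. Number 3 was then left only among the null-labelled libraries, so number and genotype were mixed in this fit. The only genes called in the whole table were Cacna1i, a calcium channel, and Slc18b1, a vesicular transporter, named after their values were seen. All 9 fitted differences were below 0, as were 49.1% of those of all tested genes, and their median was -0.26, against 0.00 over all. The groups overlapped in each member, and they did not overlap in 13.4% of tested genes. In bulk tissue, a difference in rod number and one in RNA of these genes per rod cannot be told apart. From stained sections of developing retinas older than P6, the study reported no overt change in cell number in the layer that holds the photoreceptors.

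The direction differed with the replicate number. In number 1 the null-labelled library was below the control of that number in 9 of 9 members, with ratios between 0.440 (Gnat1) and 0.886 (Gnb1) and a median of 0.704. In number 2 it was again below in 9 of 9, between 0.643 (Gnat1) and 0.880 (Pde6a), with a median of 0.783. In number 3 it was above in 7 of 9, up to 1.50 for Cnga1, with a median of 1.20, and below only in Pde6a (0.722) and Pde6b (0.859). Over all tested genes the median ratios were 0.986, 0.986 and 1.04 for numbers 1, 2 and 3. A null-labelled value below control in both number 1 and number 2 was found in 30.5% of tested genes, and the same followed by a value above control in number 3 in 13.9%. The contrast between numbers was not tested, since 1 library of each group carries each number.

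**Figure D2:**
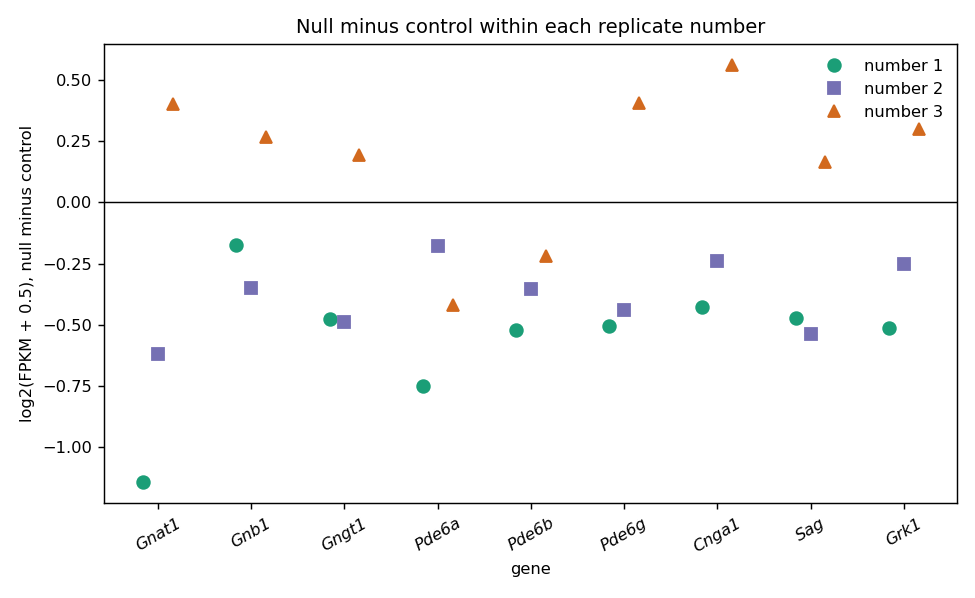
Difference in log2(FPKM + 0.5), null-labelled library minus the control of the same number (vertical axis), for each cascade gene, with 1 point for each replicate number. The points of numbers 1 and 2 lie below 0 in all 9 genes, and those of number 3 lie above 0 in all but Pde6a and Pde6b.

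Without both libraries numbered 3, the 9 differences lay between -0.88 (Gnat1) and -0.26 (Gnb1), with a median of -0.46, and still 0 of 9 passed (limma, adjusted p between 0.133 and 0.370, with 2 libraries a group). At an unadjusted p under 0.05 this fit passed 9 of 9, all lower in null-labelled libraries, where 11.6% of tested genes passed and 7% passed as lower. With the block added to it, 9 of 9 passed again, where 8.19% of tested genes passed and 4.79% passed as lower. With the replicate number as a block and all 6 libraries, again 0 of 9 were called, where 0.0911% of tested genes were. At an unadjusted p under 0.05 with the block and all 6 libraries, 2 of 9 passed, Pde6a and Pde6b, both lower in null-labelled libraries, where 12.2% of tested genes passed and 5.21% passed as lower. The adjusted p of limma with the block was 0.312 for Pde6a and 0.263 for Pde6b. Leaving out 1 library moved the median of the 9 to -0.71 without control 3, to 0.01 without null-labelled library 3, to -0.02 without control 1 and to 0.01 without control 2.

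By replicate number the members changed together. An F test of the number, in a fit with genotype, called 9 of 9 members, where 4.97% of tested genes were called, and 1.75% were called with number 3 lower. The size is given as number 3 minus the mean of numbers 1 and 2, a contrast chosen with earlier results known. It was -1.77 for Gnat1 (SE 0.264, limma F test, adjusted p = 0.0222), -1.58 for Pde6a (SE 0.137, adjusted p = 0.00341), -1.38 for Cnga1 (SE 0.184, adjusted p = 0.0156) and -1.29 for Grk1 (SE 0.157, adjusted p = 0.0115). Gngt1 followed at -1.15 (SE 0.147, limma F test, adjusted p = 0.0133) and Pde6b at -1.11 (SE 0.0951, adjusted p = 0.00330). The smallest falls were those of Pde6g at -0.97 (SE 0.180, limma F test, adjusted p = 0.0473), Sag at -0.95 (SE 0.150, adjusted p = 0.0279) and Gnb1 at -0.74 (SE 0.133, adjusted p = 0.0418). Both libraries numbered 3 lay below the 4 others in 9 of 9 members, as they did in 17.7% of tested genes.

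The call of the members by number rested on control 3 and on the fit. Without control 3 the size was smaller in all 9, by over 1.5 times in Gnat1 (-1.13), Pde6g (-0.53), Sag (-0.61) and Gnb1 (-0.48), while Pde6a, at -1.56, was then the largest. The count called without control 3 was 0 of 9, without null-labelled library 3 it was 7 of 9, and without any other single library between 6 and 8 of 9. With no filter on low values, 0 of 9 were called, and with no mean-variance trend 3 of 9. All 9 kept a number 3 value below that of numbers 1 and 2 in each of these fits.

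Number 3 stood further below numbers 1 and 2 in the controls than in the null-labelled libraries. Number 3 over the mean of numbers 1 and 2 had a median over the members of 0.517 in null-labelled libraries and 0.354 in controls. The ratio was smaller in the control in 9 of 9 members, as in 62.4% of tested genes. For Gnat1 the ratio was 0.427 in null-labelled libraries and 0.168 in controls, for Pde6g 0.694 in null-labelled libraries and 0.376 in controls, and the gap was narrowest for Pde6a, with 0.309 in null-labelled libraries and 0.305 in controls. With 1 library for each, the gap was not tested. Of the variance of each member over the 6 libraries, the number took between 80.3% (Pde6g) and 91.4% (Grk1), with a median of 87.5%, against a median of 48.2% over all tested genes. Genotype took a median of 4.89% in the members and 15.2% over all.

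**Figure D3:**
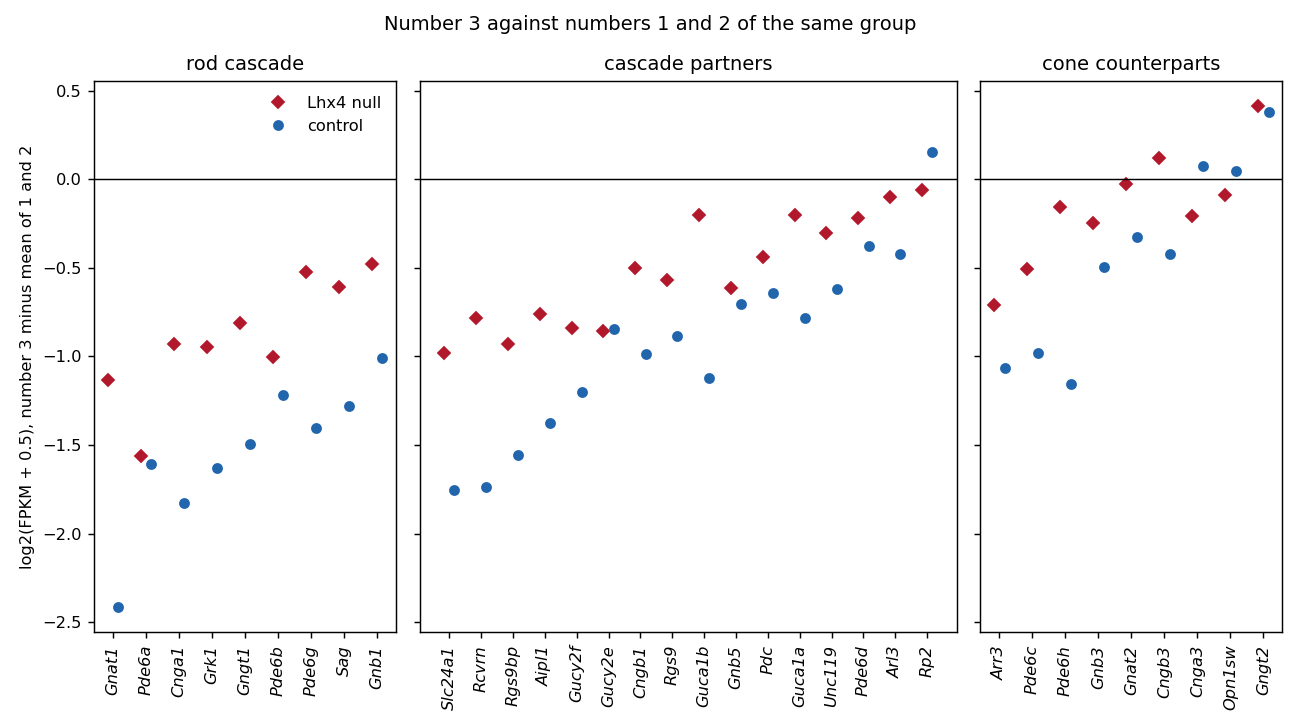
Number 3 minus the mean of numbers 1 and 2 in log2(FPKM + 0.5) (vertical axis) within null-labelled libraries (diamonds) and within controls (circles), for the 9 cascade genes, 16 further genes of the cascade and 9 cone counterparts. All 9 rod genes lie below -0.4 in both groups, and the cone genes scatter around a median of -0.18.

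Other genes moved with the number as well, and their part in these results was not tested. Over all tested genes the median of number 3 minus numbers 1 and 2 was -0.00. Of these genes 4.97% were called by number, and 1.75% were called with number 3 lower. Genes of rod identity (11, among them the rod factors Nrl and Nr2e3 and the photoreceptor factor Crx) were lower in number 3 in 11 of 11, with a median of -0.53 and 3 of 11 called. Their summed level was 2693, 2718 and 2289 FPKM in null-labelled libraries and 3116, 3272 and 2116 FPKM in controls. Nrl, which specifies rods, had 489, 499 and 480 FPKM in null-labelled libraries and 568, 664 and 461 FPKM in controls. Cell cycle genes went the other way, higher in number 3 in 14 of 14 with a median of 1.34 and 13 of 14 called. They summed to 125, 128 and 278 FPKM in null-labelled libraries and 114, 143 and 321 FPKM in controls. Pigment epithelium genes summed to 9.79, 10.8 and 30.6 FPKM in null-labelled libraries and 9.44, 21.4 and 26.8 FPKM in controls, with 4 of 8 under 0.5 FPKM in every library, among them the defining marker Rpe65. Genes of the lens summed to 0.515, 16.3 and 18.2 FPKM in null-labelled libraries and 1.73, 0.883 and 2.89 FPKM in controls. Bipolar genes were lower in number 3 in 9 of 11, with a median of -0.66 and 6 of 11 called. Their sum was 614, 579 and 548 FPKM in null-labelled libraries and 722, 684 and 636 FPKM in controls, and without Otx2, which photoreceptors also express, 239.6, 245 and 151 FPKM in null-labelled libraries and 341, 242 and 144 FPKM in controls, which overlap.

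Set against the mean log2 level of the rod identity genes, the cascade was still lower in number 3 in 9 of 9 members, from Gnat1 at -1.15 to Gnb1 at -0.11. By genotype, 8 of 9 members were lower relative to that mean in null-labelled libraries, from Gnat1 and Pde6a, both at -0.37, to Gnb1 at -0.00, while Cnga1 was at 0.05. The same mean was taken from every member, so these values are the fitted differences above, all moved by the same amount. In those, 9 of 9 were below 0 by genotype, as were 49.1% of tested genes, and the groups overlapped in each member. Several of those signs changed when 1 library was left out. The values are differences of means given as a description.

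**Figure D4:**
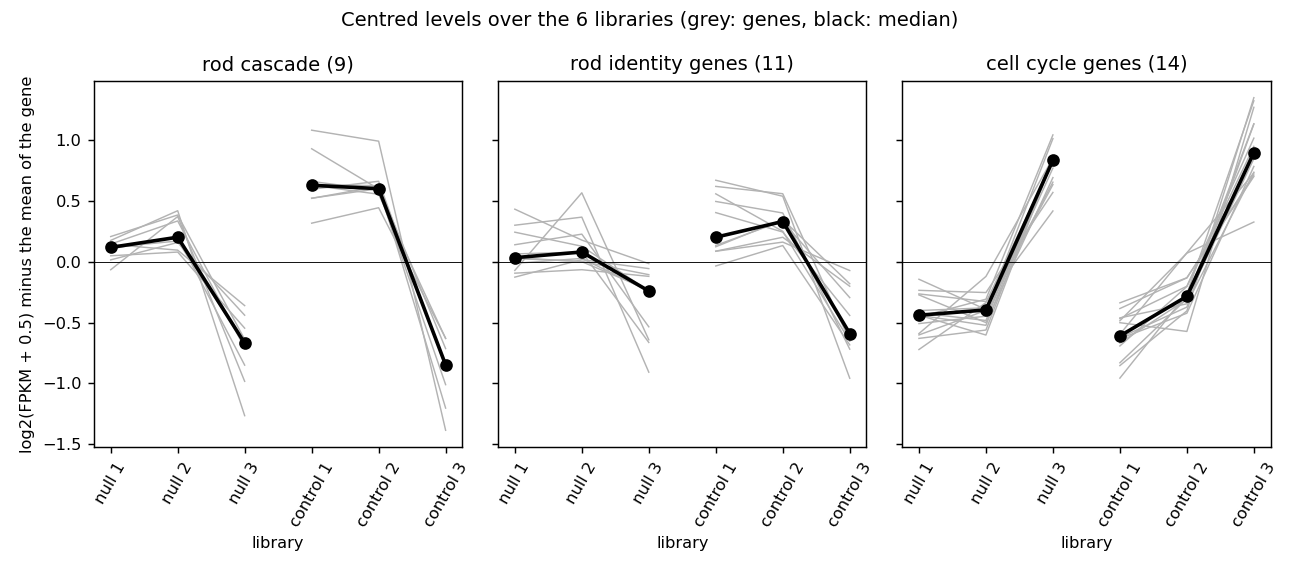
Log2(FPKM + 0.5) minus the gene's own mean over the 6 libraries (vertical axis) for each library (horizontal axis, null-labelled first), with a grey line for each gene and black for the median, in the 9 cascade genes, the 11 rod identity genes and the 14 cell cycle genes. The cascade median is at 0.12, 0.20 and -0.67 in null-labelled libraries and at 0.63, 0.60 and -0.85 in controls, and the cell cycle genes run opposite in number 3.

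The genes whose profile over the 6 libraries was closest to the median of the members were found among 7104 other genes of at least 10 FPKM, by the root mean square of the difference of centred log2 values. Among the nearest were Aipl1, a chaperone for the phosphodiesterase (distance 0.0618), Rdh12, a retinol dehydrogenase of photoreceptors (0.0641), the vesicular glutamate transporter gene Slc17a7 (0.0866) and Reep6, also in the rod identity list (0.0988). The median distance was 0.581 over the 7104 genes and 0.117 over the 9 members, where Gngt1 was nearest (0.0317) and Gnat1 farthest (0.366). The profile was the median of these same members, which by itself makes their distance small, so the 2 medians are not a test. Aipl1 had 57.4, 65.3 and 36.0 FPKM in null-labelled libraries and 87.6, 78.1 and 31.5 FPKM in controls, highest in controls 1 and 2 and lowest in both libraries numbered 3, as in the members.

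Another 16 genes serve the cascade as channel partner, cGMP supply, calcium sensing, transducin shut-off or protein transport. By genotype 0 of 16 were called, 11 were lower and 5 higher in null-labelled libraries, and the median was -0.14. The 3 smallest p were those of Guca1b, Arl3 and Rp2. Guca1b, an activator of guanylate cyclase, had 4.22, 5.09 and 3.97 FPKM in null-labelled libraries and 3.55, 3.07 and 1.25 FPKM in controls, so that the groups did not overlap (0.74, SE 0.305, limma, adjusted p = 0.716). Arl3, a GTPase that releases lipid-anchored proteins, had a difference of -0.26 (SE 0.133, limma, adjusted p = 0.749), and Rp2, which acts on Arl3, one of 0.25 (SE 0.164, limma, adjusted p = 0.786).

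By number, 9 of these 16 were called, each with number 3 lower, where 4.97% of tested genes were called and 1.75% with number 3 lower. Number 3 was lower in 15 of 16, with a median of -0.69, against -0.00 over all tested genes. Gucy2e, a guanylate cyclase that restores cGMP, had 17.4, 14.8 and 8.66 FPKM in null-labelled libraries and 18.9, 16.6 and 9.64 FPKM in controls (-0.85, SE 0.0965, limma F test, adjusted p = 0.00863). Rgs9bp, the anchor of the complex that speeds transducin's shut-off, changed by -1.24 (SE 0.154, limma F test, adjusted p = 0.0125), and Gnb5, another part of that complex, by -0.66 (SE 0.0848, limma F test, adjusted p = 0.0135). Aipl1, Rgs9, Rcvrn, Gucy2f, Cngb1 and Slc24a1 were the others called. Those not called were Guca1a, Guca1b, Pdc, Pde6d, Unc119, Arl3 and Rp2. As with the members, 0 of the 16 were called without control 3, and 2 were called without null-labelled library 3 and 5 without either library numbered 2.

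Cones use their own versions of most of these proteins, and 9 of 10 such genes were tested (Opn1mw was under the filter). Their median difference by genotype was 0.10, with 2 lower and 7 higher in null-labelled libraries and 0 of 9 called. At the study's thresholds, applied to the limma fit, 1 of 9 passed (Arr3), where 0.25% of tested genes did. The groups did not overlap in 3 of 9 (Arr3, Opn1sw and Cnga3), against 13.4% of tested genes. Arr3, the cone arrestin, had 7.19, 5.26 and 3.56 FPKM in null-labelled libraries and 21.0, 16.4 and 8.63 FPKM in controls. Every null-labelled library was below every control, and the difference of -1.40 (SE 0.344) gave an adjusted p of 0.661 and, with the replicate block, of 0.0104 (limma), which passed. Opn1sw, the short-wavelength cone opsin, had 200, 190 and 183 FPKM in null-labelled libraries and 108, 126 and 121 FPKM in controls (0.69, SE 0.0953, limma, adjusted p = 0.327, and 0.0662 with the block). Cnga3, the cone channel subunit, differed by 0.26 (SE 0.131, limma, adjusted p = 0.749). Opn1sw overlaps Calu, Gngt2 overlaps Abi3 and Pde6h overlaps Arhgdib on the other strand, which makes these values less certain. By number 2 of 9 were called, where 4.97% of tested genes were. They were Arr3 at -0.89 (SE 0.123, limma F test, adjusted p = 0.0140) and Pde6c at -0.74 (SE 0.135, adjusted p = 0.0427), and Pde6h was at -0.65 (SE 0.215, adjusted p = 0.0780). Leaving out null-labelled library 3 or control 3 gave 0 of 9, and 1 was called without control 2.

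The ratio of each rod gene to its cone counterpart was compared over 8 pairs, with an exact permutation test, two-sided, whose smallest p is 0.1 for 3 against 3. No pair passed, and the smallest BH-adjusted p was 0.267. Sag over Arr3 stood at 69.1, 96.5 and 92.3 in null-labelled libraries and at 32.8, 44.9 and 34.0 in controls, without overlap (log2 difference 1.12, exact p = 0.1). Pde6g over Pde6h stood at 13.4, 6.69 and 7.32 in null-labelled libraries and at 21.1, 14.5 and 15.0 in controls, also without overlap (-0.92, exact p = 0.1). Pde6b over Pde6c was lower in each null-labelled library than in any control (-0.44, exact p = 0.1). These 3 pairs were therefore at the limit of the test, while the other 5 overlapped, with exact p between 0.4 and 0.8 and differences between -0.55 (Gnat1 over Gnat2) and -0.08 (Gnb1 over Gnb3). Single genes did not overlap in 13.4% of tested genes, and no such share was taken for other pairs. By themselves Sag, Pde6g and Pde6b each overlapped between groups, as did Pde6h and Pde6c, while Arr3 did not. Gnat1 over Gnat2 stood at 0.276, 0.354 and 0.138 in null-labelled libraries and at 0.651, 0.532 and 0.124 in controls, lowest in number 3 of both groups. All 8 rod genes were lower relative to their cone counterpart in number 3, with log2 differences between -1.60 (Gnat1 over Gnat2) and -0.06 (Sag over Arr3).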

How the data were processed

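Retinas of 3 Lhx4 null and 3 control mice at P6 were measured by RNA-seq, with the pigment epithelium removed at dissection. The deposited values are FPKM, which the authors made by mapping with TopHat2 and estimating abundance with Cufflinks on GRCm38, per the labels. Tool versions, the annotation and strand handling are not stated in those sources. FPKM keeps no reads: among low values at most 7.83% of genes shared 1 ratio between libraries numbered 1 or 2, and 0.946% to 1.25% between these and number 3, so no count test or counting interval was possible, and the reads of each library are not known from these values. Of 21995 rows, 168 shared 76 names (the highest mean kept the bare name), and 27 had a date for a name, 23 of them tested unnamed.

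The model was limma 3.58.1 (R 4.3.3, eBayes with trend), on log2(FPKM + 0.5), for the 13175 rows averaging 0.5 FPKM or more. Adding 0.5 makes the fold of a low gene appear smaller than it is. BH adjustment ran over all rows tested, and calls are at an adjusted p under 0.05, two-sided. The steps were tested on simulated data with independent noise. The genotype run held no effect of replicate number, so it does not give the power of the genotype fit on these libraries. Genotype was fitted alone, as the study compared it, and the number by an F test beside genotype. Both groups carry the numbers 1 to 3. After removal of group means, libraries of the same number had a Pearson r across genes of 0.394, 0.260 and 0.675 (numbers 1, 2 and 3). These were above the limit of 0.1 set for pairing, but so were crossed pairs. Null-labelled library 2 with control 1 had 0.377, and null-labelled library 1 with control 2 had 0.269. The check set number 3 apart and could not show that numbers 1 and 2 mark pairs. The labels do not say what a number stands for. Ratios of rod to cone genes were compared with exact permutation tests (scipy 1.17.1).

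Members and lists were chosen with earlier results of these data known. Named were every member, the 3 genes with the smallest p per list in each fit, the 5 genes of nearest profile (1 is not reported here), and up to 3 markers per list by level. Cacna1i, Slc18b1, Rpe65, Grik1, Grm6 and Scgn were named after their values were seen. Other settings tried were a pseudocount of 0.1 or 1, a filter at 2 FPKM or none, scaling of libraries to equal upper quartile or equal summed FPKM, quantile normalization, no trend, array weights, a replicate block, each library left out, and both libraries numbered 3 left out. The last with the block was added after seeing the data.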

Additional observations from a re-analysis of the deposited data

How the results depend on the processing

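The count of members called by genotype was 0 under all 18 alternatives, and so was that of the 16 cascade partners. Over all tested genes the count by genotype was 2, against 9 with no filter, 12 with the replicate block, 11 without both libraries numbered 3, 20 without them and with the block, and 0 to 5 with 1 library left out (0 without null-labelled library 2, 5 without control 3). The replicate block added 1 cone counterpart, Arr3 (limma, adjusted p = 0.0104), and again 1 without both libraries numbered 3 (limma, adjusted p = 0.00467), and changed no call of a member.

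Signs of small differences were not stable. Cnga1 was at 0.0066 after scaling to the same summed FPKM, and Gnb1 at 0.022 after quantile normalization. Leaving out 1 library gave -1.26 to -0.03 for Gnat1, -0.77 to -0.03 for Pde6b, -0.71 to -0.04 for Sag, -0.42 to 0.11 for Gnb1, -0.75 to 0.014 for Gngt1, -0.98 to 0.071 for Pde6a, -0.65 to 0.074 for Pde6g, -0.64 to 0.28 for Cnga1, -0.70 to 0.16 for Grk1 and -0.71 to 0.014 for the median of the members. For the ratios it gave -0.25 to 0.063 for Gnb1 over Gnb3, -0.98 to 0.052 for Gngt1 over Gngt2 and -0.93 to 0.033 for Cnga1 over Cnga3.

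By number, 655 genes were called, 9 members, 9 partners and 2 cone counterparts. With no filter these were 59, 0, 0 and 0, with no trend 327, 3, 3 and 1, and without both libraries numbered 3, where only numbers 1 and 2 remain, 6, 0, 0 and 0. With 1 library left out they were 23 (without control 3) to 674, 0 to 8, 0 to 9 and 0 to 3, with 92 genes in all without null-labelled library 3. Scaling to the same summed FPKM moved the median of all genes in number 3 to -0.10 and the share of called genes lower in number 3 to 56.0%, against 35.3%, with 9 of 9 members still called. The cause of these shifts was not tested. Cufflinks values carry no fragment count, so counting error is unknown.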
